A study of Mus musculus with 20 samples.

Results

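The genes described here are 10 transcription regulators of the immediate early response: the zinc finger factors Egr1, Egr2 and Egr3, the orphan nuclear receptors Nr4a1, Nr4a2 and Nr4a3, the Krüppel-like factors Klf2, Klf4 and Klf6, and the nuclear protein gene Ier2. They were taken by gene symbol from 3 tables of called genes that hold 3696 distinct genes, and all 10 were listed in at least 1 table. RNA sequencing had been done on whole aorta of female mice in 4 groups of 5 libraries, each library pooling the aortas of 2 mice. WT young and KO young mice were 12 to 15 weeks old, and WT aged and KO aged mice 72 to 78 weeks old. WT stands for wild-type; KO stands for the label Knockdown-KO, which the series describes as Slc24a4 knockdown (Nckx4-/-). How the allele was made, the tissue in which it is deficient and the strain are not stated in the labels. Slc24a4 encodes NCKX4, an exchanger that moves calcium out of cells in return for sodium. One table sets WT aged against WT young (WT ageing), another KO aged against KO young (KO ageing), and a further one KO young against WT aged; each lists the genes at an adjusted p under 0.05. Single libraries were not analysed here, so their depth is unknown, and levels below are group means worked out from the deposited values.

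Immediate early genes are transcribed within minutes of a stimulus, without new protein synthesis, from regulators already present in the cell. Growth factors, stretch, shear stress, depolarisation and calcium entry act through serum response factor (SRF) with its ETS partners, through CREB and through MEF2, and handling of tissue is also known to induce these genes. EGR proteins bind GC-rich elements and are held in check by their NAB corepressors. NR4A receptors act without a known physiological ligand, so that the amount of protein largely sets their activity. KLF2 and KLF4 are induced by laminar flow in endothelium through ERK5 and MEF2, and KLF4 also takes part in the switch of smooth muscle cells away from the contractile state.

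Promoter windows show which of these inputs can be read from the DNA next to the start site. RefSeq windows on GRCm38.p6, from 250 bases before to 50 bases after a transcription start, were used for 7 of the 10 genes; Egr1, Egr3 and Ier2 were not used here. These coordinates are not of GRCm39, the build named in the submitters' processing notes. The sequences below are those of the 3 NR4A genes, which were called in WT ageing, of Egr2, which was called in KO ageing, and of Klf2, which had the largest difference of the 3 Krüppel-like factors among the 10 genes. Each reads 5′ to 3′ on the gene's strand, with motif matches in capitals. The windows are chr15:101266596-101266895 (plus strand), chr2:57123954-57124253 (minus strand), chr4:48045055-48045354 (plus strand), chr10:67537619-67537918 (plus strand, 1 of 5 annotated windows, the first of those with most matches) and chr8:72318812-72319111 (plus strand).
Nr4a1: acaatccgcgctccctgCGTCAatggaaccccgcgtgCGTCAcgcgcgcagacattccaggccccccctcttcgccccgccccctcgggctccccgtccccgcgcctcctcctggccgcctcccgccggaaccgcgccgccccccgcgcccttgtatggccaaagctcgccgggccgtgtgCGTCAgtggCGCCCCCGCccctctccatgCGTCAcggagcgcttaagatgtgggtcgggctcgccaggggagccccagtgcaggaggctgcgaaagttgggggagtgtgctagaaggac
Nr4a2: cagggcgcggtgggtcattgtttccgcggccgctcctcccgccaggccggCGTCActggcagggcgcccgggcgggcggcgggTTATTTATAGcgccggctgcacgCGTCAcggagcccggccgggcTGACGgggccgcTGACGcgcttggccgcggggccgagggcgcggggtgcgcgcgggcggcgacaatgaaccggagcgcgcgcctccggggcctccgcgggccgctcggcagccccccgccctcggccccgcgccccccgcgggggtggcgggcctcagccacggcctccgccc
Nr4a3: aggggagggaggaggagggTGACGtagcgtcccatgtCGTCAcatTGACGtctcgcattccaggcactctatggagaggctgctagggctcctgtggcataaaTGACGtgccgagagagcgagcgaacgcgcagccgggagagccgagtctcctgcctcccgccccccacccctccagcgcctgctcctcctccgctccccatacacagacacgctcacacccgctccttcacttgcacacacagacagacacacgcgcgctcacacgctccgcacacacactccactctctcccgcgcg
Egr2: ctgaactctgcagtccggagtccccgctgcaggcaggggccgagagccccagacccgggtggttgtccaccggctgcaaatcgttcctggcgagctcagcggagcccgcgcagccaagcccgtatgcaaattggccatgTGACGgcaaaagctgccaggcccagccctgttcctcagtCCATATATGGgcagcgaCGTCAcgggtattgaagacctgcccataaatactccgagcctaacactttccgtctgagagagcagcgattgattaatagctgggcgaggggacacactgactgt
Klf2: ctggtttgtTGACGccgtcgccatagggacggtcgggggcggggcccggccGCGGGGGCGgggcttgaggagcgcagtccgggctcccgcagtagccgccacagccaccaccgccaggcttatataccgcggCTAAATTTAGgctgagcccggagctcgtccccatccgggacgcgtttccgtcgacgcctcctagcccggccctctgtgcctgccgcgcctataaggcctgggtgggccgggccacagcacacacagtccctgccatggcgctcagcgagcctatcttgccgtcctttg

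Motifs were searched on both strands. The core of the cyclic AMP response element (CRE) bound by CREB, TGACG, occurred 4 times in each of the 3 NR4A windows. Of 32851 windows of all genes, 20.8% held at least 1 such core and 0.231% held 4 or more. The Egr2 window had 2 cores, at −111 and −55, and between them a CArG box, the SRF element, at −72; 1.63% of all windows held a CArG box. MEF2 sites, present in 3.19% of all windows, occurred in Nr4a2 at −167 and in Klf2 at −118. The GC-rich EGR element GCGGGGGCG, in 2.91% of all windows, occurred in Nr4a1, Klf2 and Klf4. The full element TGACGTCA, which contains the core and is in 1.79% of windows, and the NR4A monomer element AAAGGTCA, in 1.51%, had no match in the windows of the 7 genes. The Klf6 window held none of these letters. No 2 matches overlapped, and a match describes the sequence only.

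**Figure D1:**
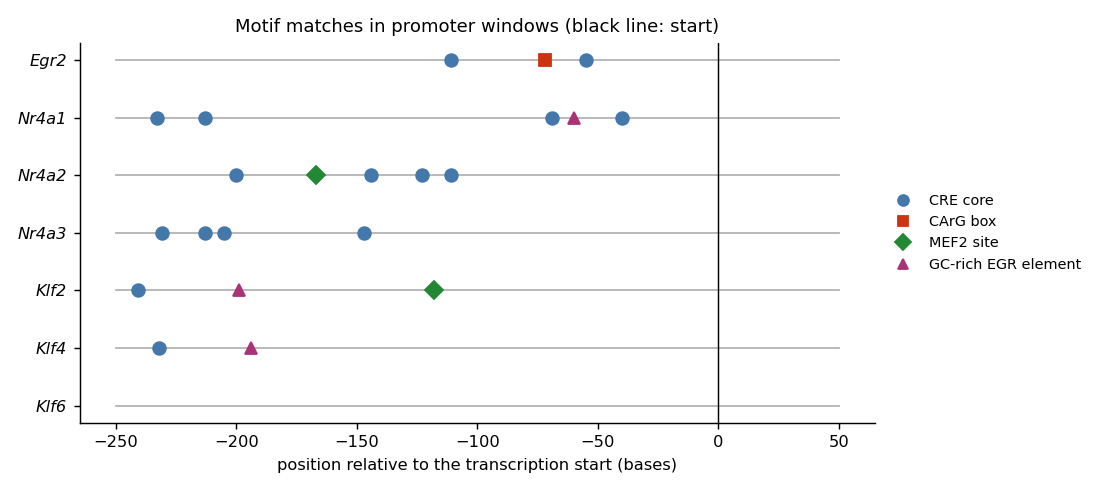
Positions of motif matches in the promoter windows of 7 genes. The horizontal axis gives the first base of each match relative to the transcription start in bases, each row is a gene, and the symbols mark the motif; the 3 NR4A rows carry 4 CRE cores each, the Egr2 row holds the CArG box, and the Klf6 row is empty.

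KO young aorta had more RNA of all 10 early factors than WT aged aorta, from 1.22-fold for Klf6 to 3.89-fold for Nr4a1. In that comparison 7.78% of 14661 tested genes were called, and 4.08% were called higher in KO young. The ageing tables listed different families. In WT aorta the 3 NR4A genes were called lower in aged than in young tissue and none of the other 7 factors was called, where 12.0% of 14374 tested genes were called and 6.76% called lower. In KO aorta all 3 EGR genes and Ier2 were called lower in aged tissue and none of the NR4A or KLF genes was called, where 14.4% of 14477 tested genes were called and 6.68% called lower. Over all genes 1728 were called in WT ageing and 2083 in KO ageing, but only 438 in both, so most calls were not shared. No early factor was called in both ageing comparisons, so the difference between genotypes in the effect of age could not be tested for any of them. The 2 sets of calls are not shown to differ between genotypes. Because whole tissue was measured, fewer cells of a type and less RNA per cell cannot be told apart.

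**Figure D2:**
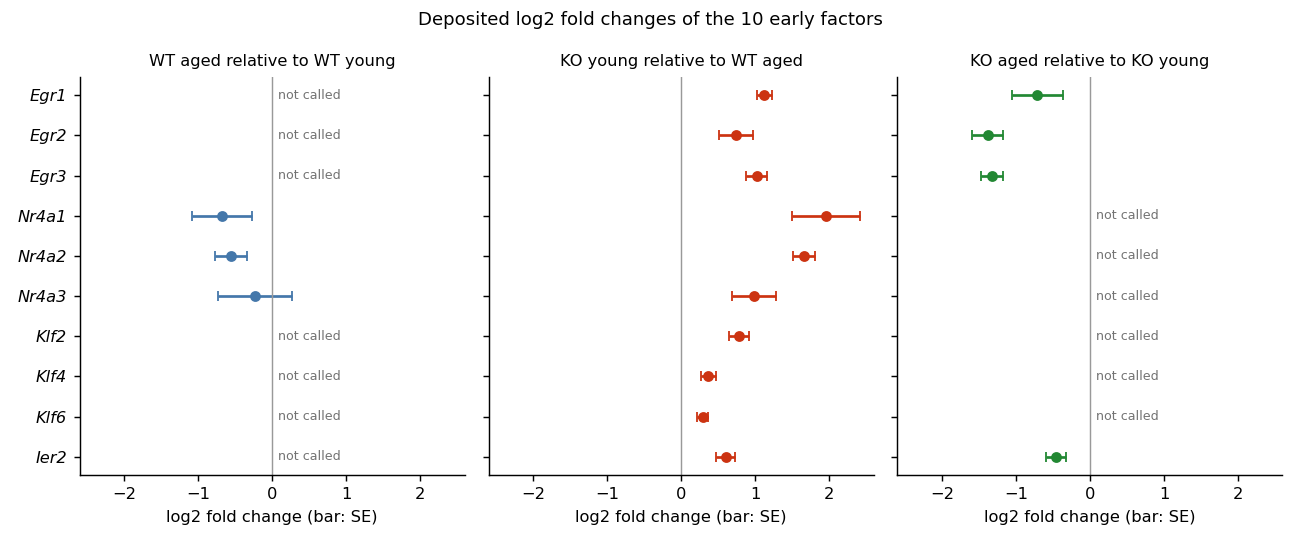
Log2 fold changes of the 10 early factors in the authors' deposited tables. The horizontal axis is the log2 fold change of the first-named group relative to the other, bars are the deposited SE (5 libraries per group), and "not called" marks a gene absent from that table; all 10 points lie above 0 for KO young relative to WT aged, and the points of both ageing comparisons lie below 0.

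The targeted gene checks the labels only in part. Slc24a4 was listed in WT ageing alone, at a log2 fold change of −2.00 (SE 0.46) in the authors' deposited table, and in no table that holds KO libraries, so these tables do not show a loss of its RNA in KO aorta. Directions drawn from KO groups rest on the label. KO young and WT aged differ in genotype and age together, and which of the 2 goes with a difference cannot be told apart. Aortic identity could be read only from called markers: of 8 smooth muscle markers, Des, Smtn, Myocd and Lmod1 were listed in a table, at mean normalized counts from 2301 to 43164. Genes not called are not in these tables, so no defining marker can be said to be absent.

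Nr4a1, which encodes the orphan receptor also called NUR77, had implied mean normalized counts of 11111 in WT young, 6935 to 7252 in WT aged (from the 2 tables that share this group) and 28214 in KO young. Its WT aged level was the lowest of the 3 groups and its KO young level the highest. The authors' deposited table gave a log2 fold change of 1.96 (SE 0.46, adjusted p = 6.17e-05) for KO young relative to WT aged, the change ranked 16 by size among 1141 called genes. For WT ageing the authors' deposited table gave −0.68 (SE 0.41, adjusted p = 0.018). That SE was larger than those of 99.2% of 259 called genes with a mean within 2-fold of that of Nr4a1, whose median SE was 0.08. In KO young relative to WT aged the SE of Nr4a1 was likewise above 99.0% of its 98 neighbours by mean.

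Nr4a2, which encodes NURR1 and is best known from dopamine neurons, showed the same order of groups with a smaller error. Its implied means were 800 in WT young, 543 to 581 in WT aged and 1837 in KO young. KO young stood at 1.66 (SE 0.14, adjusted p = 3.13e-28) relative to WT aged in the authors' deposited table, the smallest adjusted p of the 10 factors. The fall with age in WT was −0.56 (SE 0.22, adjusted p = 0.0046) in the authors' deposited table. Nr4a3, which encodes NOR1, a receptor studied in proliferating vascular smooth muscle, had implied means of 891 in WT young, 624 to 760 in WT aged and 1230 in KO young. The authors' deposited table gave it 0.98 (SE 0.30, adjusted p = 0.00132) in KO young relative to WT aged.

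The WT ageing value of Nr4a3 is the least certain of the deposited values. The authors' deposited table lists −0.23 with an SE of 0.50 and an adjusted p of 0.0432, so the fold change is smaller than its SE although the gene was called. Deposited fold changes are shrunken towards 0, and here the ratio of fold change to SE was 0.164 of the z that the p-value implies, against a median of 0.858 over the called genes of that table. The z of the p-value times the SE is −1.40 for Nr4a3, −1.29 for Nr4a1 and −0.79 for Nr4a2. The deposited SE may belong to the shrunken value, so these products need not equal the fold changes before shrinkage. All 3 values are below 0 on both scales, because z was given the sign of the deposited fold change.

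Egr1, the zinc finger gene most used as a marker of the early response in vessels, had implied means of 5057 in WT aged, 10991 to 11436 in KO young and 6991 in KO aged. KO young was the high group. The authors' deposited table gave 1.12 (SE 0.10, adjusted p = 2.55e-26) for KO young relative to WT aged. For KO ageing the authors' deposited table gave −0.71 (SE 0.35, adjusted p = 0.0143). The SE thus stood at 0.10 where KO young was set against WT aged and at 0.35 where it was set against KO aged, and the second of these was above 98.9% of 283 called genes of like mean.

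Egr3 and Egr2 gave the largest decreases of the 4 factors called in KO ageing. Egr3, which acts in muscle spindle development and downstream of VEGF in endothelium, had implied means of 407 in WT aged, 826 to 889 in KO young and 356 in KO aged. In the authors' deposited tables it stood at 1.02 (SE 0.14, adjusted p = 1.57e-11) in KO young relative to WT aged and at −1.32 (SE 0.15, adjusted p = 3.82e-17) in KO ageing. Egr2, a regulator of hindbrain patterning and myelination, had implied means of 137 in WT aged, 228 to 243 in KO young and 93.4 in KO aged. The authors' deposited table gave it 0.74 (SE 0.23, adjusted p = 0.00133) and −1.38 (SE 0.21, adjusted p = 2.64e-10) in the same comparisons. These decreases ranked 35 and 29 by size among 2083 called genes. For both genes the KO aged mean lay below that of WT aged, though the 2 means come from separately normalized tables.

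Ier2, a small nuclear protein gene induced together with the EGR genes, followed them at a smaller size. Its implied means were 780 in WT aged, 1182 to 1246 in KO young and 906 in KO aged. The authors' deposited table gave 0.60 (SE 0.12, adjusted p = 7.36e-06) for KO young relative to WT aged and −0.46 (SE 0.13, adjusted p = 8.81e-04) for KO ageing.

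The 3 Krüppel-like factors were called only where KO young was compared with WT aged, and the sizes of their differences were not alike. Klf2, which keeps endothelium quiescent under laminar flow, had implied means of 1379 in WT aged and 2369 in KO young, and 0.78 (SE 0.13, adjusted p = 9.70e-09) in the authors' deposited table. Klf4 had implied means of 1292 and 1670 and stood at 0.37 (SE 0.10, adjusted p = 4.33e-04) in the authors' deposited table. Klf6, a factor induced by injury in vessel and liver, had implied means of 10371 and 12680 and stood at 0.29 (SE 0.07, adjusted p = 3.63e-04) in the authors' deposited table. Larger absolute fold changes were found for 53.5% of the called genes in the case of Klf4 and for 71.5% in that of Klf6, against 15.2% for Klf2.

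**Figure D3:**
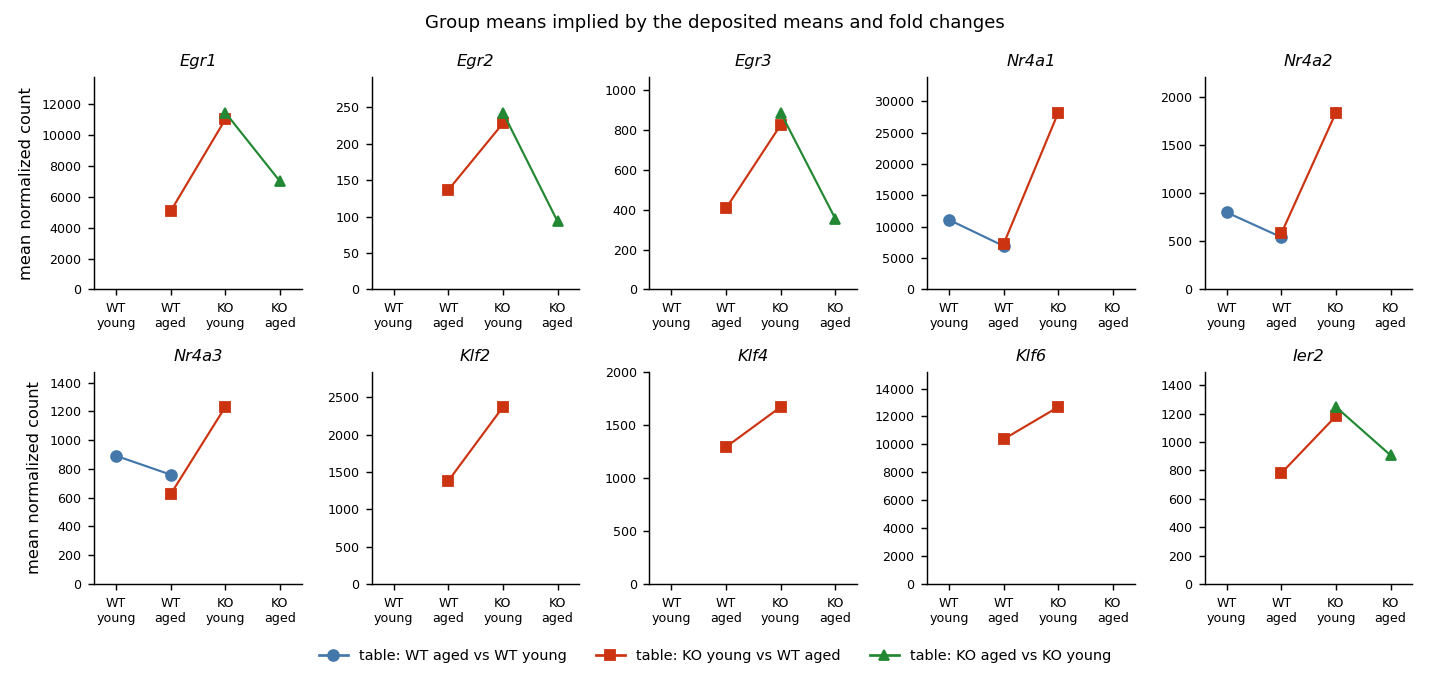
Mean normalized counts of each early factor in the groups for which a table lists it, worked out from the deposited mean and log2 fold change. Each panel is a gene with its own vertical axis from 0, colours and symbols mark the table, and points from separately normalized tables are not joined; there are no error bars because values per library were not used. In every panel KO young is the highest group shown.

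Groups that no table compares directly can be set side by side by adding fold changes, with no test, since the tables share libraries and were normalized separately. For KO young relative to WT young the deposited values sum to a log2 difference of 1.28 for Nr4a1, 1.10 for Nr4a2 and 0.75 for Nr4a3. On the scale of z times SE the sums were 0.94, 0.89 and −0.18, so the sign for Nr4a3 depends on the scale used. For KO aged relative to WT aged the deposited values sum to 0.41 for Egr1, −0.64 for Egr2, −0.30 for Egr3 and 0.14 for Ier2. On the other scale the sum for Egr1 was 0.02.

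A factor absent from a table was not called there, which does not show that its level was equal. With the SE from KO young relative to WT aged, and the z of the last called gene, the smallest log2 change that would pass in WT ageing was 0.28 for Egr1, 0.39 for Egr3, 0.63 for Egr2 and 0.34 for Ier2. In KO ageing it was 1.23 for Nr4a1, 0.80 for Nr4a3 and 0.39 for Nr4a2, on the scale of z times SE, where Nr4a1 stood at −1.29 in WT ageing. For the KLF genes it lay between 0.20 and 0.36 in both ageing comparisons. These limits are rough, because SEs differ between tables, as those of Egr1 show.

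**Figure D4:**
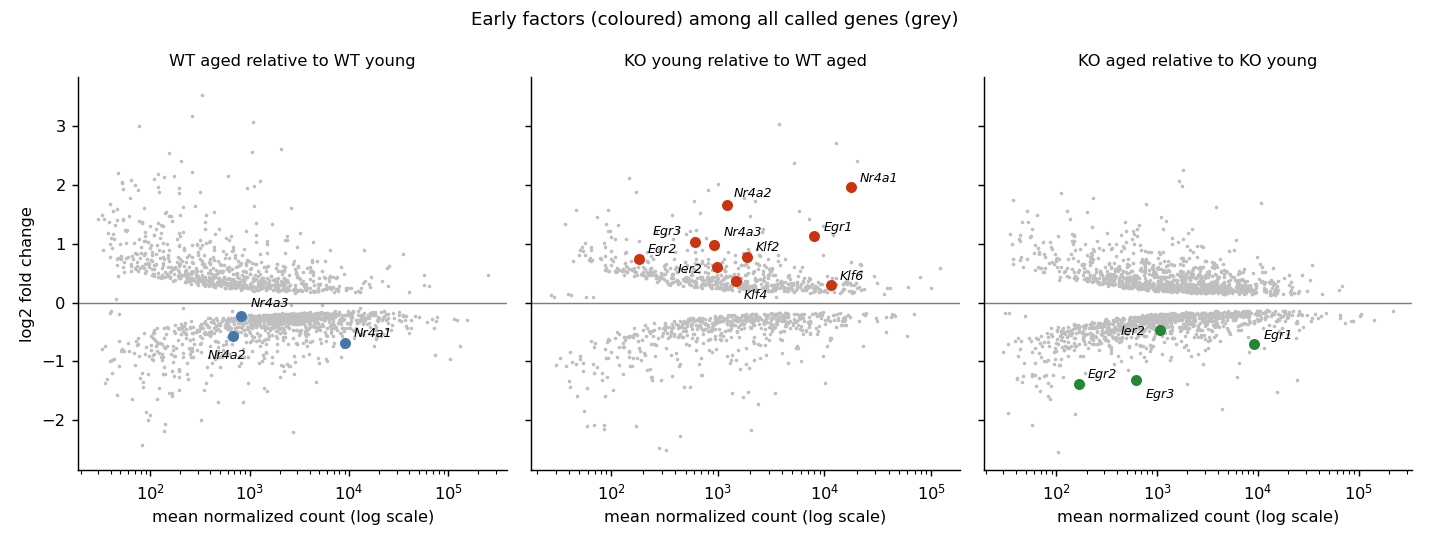
The early factors among all genes called in each comparison. The horizontal axis is the deposited mean normalized count on a log scale and the vertical axis the log2 fold change; grey points are all called genes and coloured points the early factors. Nr4a1 and Nr4a2 stand near the upper edge for KO young relative to WT aged, Egr2 and Egr3 near the lower edge in KO ageing, and Nr4a3 in WT ageing close to 0.

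Beside the members, other early-response genes were read from lists. In KO young relative to WT aged, 7 of 10 AP-1 and ATF factor genes were called, all higher, with a median log2 fold change of 1.55 against 0.88 for the 10 early factors and 0.20 for all called genes. The authors' deposited table gave 2.70 (SE 0.19) for Fos and 2.37 (SE 0.33) for Fosb, both partners of JUN in AP-1. Of 26 effectors and feedback regulators 15 were higher and 2 lower, with Btg2, an antiproliferative gene, at 1.30 (SE 0.09) and the phosphatase gene Dusp1 at 1.15 (SE 0.08) in the authors' deposited table. Both lower genes, Spry4 (−0.79, SE 0.14) and Spry2 (−0.36, SE 0.13) in the authors' deposited table, encode Sprouty inhibitors of receptor tyrosine kinase signalling, and Spry2 was picked for mention after its value was seen. The relatives Ier5 (0.89, SE 0.14) and Ier3 (0.38, SE 0.16) were higher in the authors' deposited table, while Egr4 and the corepressor genes Nab1 and Nab2 were not called in any table.

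In the ageing comparisons the same lists gave fewer calls, although more of all tested genes were called there. Those shares were 12.0% in WT ageing and 14.4% in KO ageing, against 7.78% in KO young relative to WT aged. WT ageing called 3 AP-1 and ATF genes, all lower, and 7 effectors, 6 lower and 1 higher; the medians were −1.02 and −0.45, against −0.56 for the 3 NR4A genes and −0.21 for all called genes. KO ageing called 5 AP-1 and ATF genes, 4 lower and 1 higher, and 15 effectors, 11 lower and 4 higher. The medians there were −1.27 and −0.40, against −1.01 for the 4 called early factors and 0.18 for all called genes. Of these 2 lists 8 genes were called in both ageing comparisons. Jun, an AP-1 subunit gene, stood at −1.02 in each of the authors' deposited tables (SE 0.33 in WT, 0.10 in KO), and the difference between the genotypes was 0 (SE 0.35; two-sided z test, adjusted p = 1 over 438 genes).

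**Figure D5:**
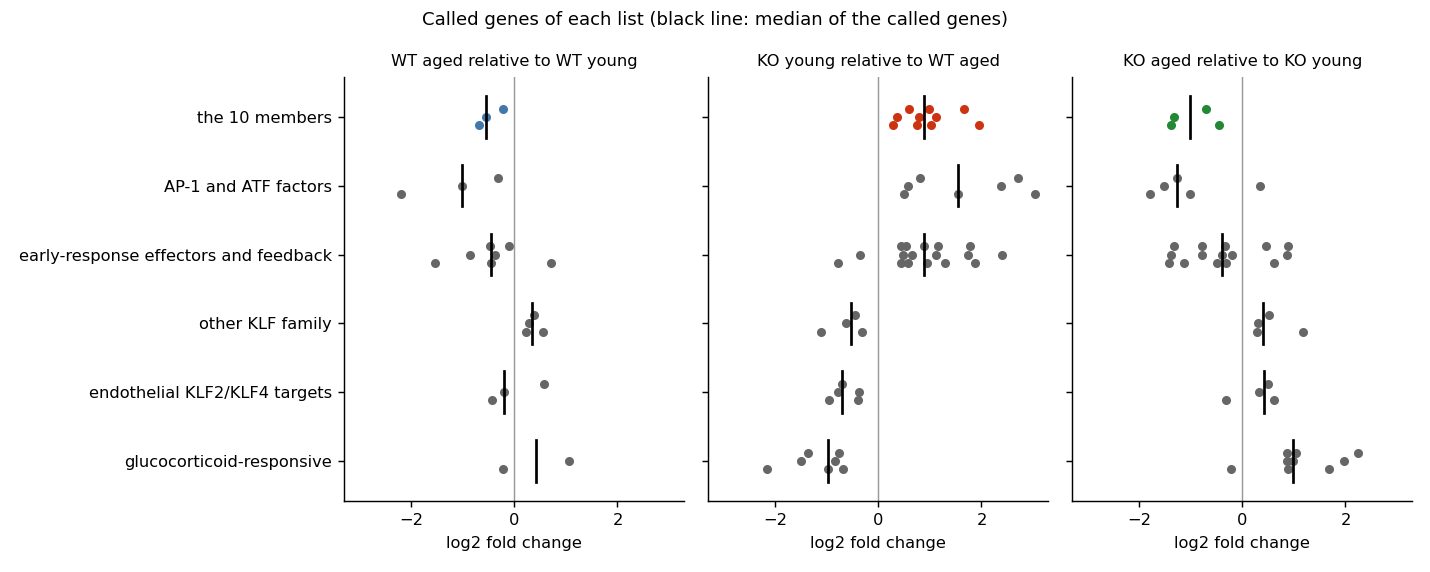
Log2 fold changes of called genes by list in the 3 comparisons. Each point is a called gene, the black line is the median of the called genes of a list, and the coloured points are the early factors; AP-1 factors lie on the same side of 0 as the early factors except for 1 gene in KO ageing, and called genes of the other KLF family lie on the opposite side.

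Other members of the KLF family differed in the opposite direction. Of 14 further KLF genes 4 were lower in KO young relative to WT aged aorta, 4 were higher in aged WT aorta and 4 were higher in aged KO aorta, with none called the other way. Klf15, a regulator of amino acid and lipid metabolism that glucocorticoids induce, stood at −1.11 (SE 0.10) in KO young relative to WT aged, 0.55 (SE 0.10) in WT ageing and 1.18 (SE 0.10) in KO ageing in the authors' deposited tables. Klf9, also induced by glucocorticoids, stood at −0.63 (SE 0.09) and 0.51 (SE 0.06) in the authors' deposited tables for the comparisons with a KO group.

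Regulators upstream of the early factors, where called, had log2 fold changes between −0.46 and 0.34. Their counts stand beside 12.0% of all tested genes called in WT ageing, 7.78% in KO young relative to WT aged and 14.4% in KO ageing. Of 10 genes on the SRF side, Srf (−0.29, SE 0.09) and the coactivator gene Mrtfb (−0.26, SE 0.08) were among those lower in WT ageing in the authors' deposited table. The ETS partner gene Elk3 was higher in KO young relative to WT aged (0.26, SE 0.10) and lower in KO ageing (−0.46, SE 0.11) in the authors' deposited tables. Of 10 genes of the MEF2 and ERK5 branch none was called in KO young relative to WT aged; the table holds called genes only, so their unadjusted p-values are not known. WT ageing called 2 of the 10. The ERK5 gene Mapk7 was higher (0.34, SE 0.11) and the factor gene Mef2d lower (−0.24, SE 0.07) in the authors' deposited table. KO ageing called 4, 3 higher and 1 lower. Mapk7 (0.23, SE 0.09), Krit1 (0.22, SE 0.07) and the MEF2 corepressor gene Hdac5 (0.18, SE 0.06) were higher in the authors' deposited table. Mef2a (−0.23, SE 0.06) was lower there. Crtc3, a coactivator of CREB, was the single gene called among 8 on the CREB side, at −0.27 (SE 0.08) in WT ageing, 0.30 (SE 0.07) in KO young relative to WT aged and −0.23 (SE 0.07) in KO ageing in the authors' deposited tables.

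Genes known to respond to KLF2 and KLF4 in endothelium, by induction or repression, gave 5 calls of 14 in KO young relative to WT aged. The share of all tested genes called was 7.78% in that comparison, 14.4% in KO ageing and 12.0% in WT ageing. The 5 called genes were all lower in KO young, and Klf2 and Klf4 higher. Among them the authors' deposited table gave −0.71 (SE 0.15) for the nitric oxide synthase gene Nos3, −0.95 (SE 0.22) and −0.78 (SE 0.19) for the connexin genes Gja5 and Gja4, and −0.39 (SE 0.14) for the sphingosine phosphate receptor gene S1pr1. KO ageing gave 4 calls, 3 higher and 1 lower: Nos3 (0.50, SE 0.13), S1pr1 (0.61, SE 0.12) and Gja5 (0.33, SE 0.19) were higher and the adhesion molecule gene Vcam1 (−0.32, SE 0.08) lower in the authors' deposited table. WT ageing gave 3 calls, with Cyp1b1 (0.58, SE 0.09) higher, and the water channel gene Aqp1 (−0.43, SE 0.24) and the thrombomodulin gene Thbd (−0.21, SE 0.08), a textbook KLF2 target, lower in the authors' deposited table.

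Called cell markers and hormone-responsive genes are given beside these results. As background, 12.0% of all tested genes were called in WT ageing, 7.78% in KO young relative to WT aged and 14.4% in KO ageing. A single call is 10% of a list of 10 and 12.5% of a list of 8, near those shares. In KO young relative to WT aged, 3 of 10 endothelial markers were called, with Egfl7 at 0.48 (SE 0.13) and Kdr at 0.36 (SE 0.15) higher and Vwf at −0.62 (SE 0.34) lower in the authors' deposited table. In KO ageing Egfl7 (−0.60, SE 0.11) and Cldn5 (−0.67, SE 0.23) were lower, and in WT ageing Esam (−0.32, SE 0.13), in the authors' deposited tables, and no other endothelial marker was called. Of 10 fibroblast markers 3 were higher in KO young relative to WT aged, 6 lower in WT ageing and 3 lower in KO ageing. These called markers had the same sign as the called early factors in each comparison, and the sign of the others is unknown. Only Fap of this list was called in all 3 comparisons. Among 8 macrophage markers Cd163 alone was called, at −0.48 (SE 0.13) in KO young relative to WT aged and 0.43 (SE 0.28) in KO ageing in the authors' deposited tables. None of 8 lymphocyte markers was called in any comparison. Of 8 smooth muscle markers Des was higher in WT ageing (0.39) and Smtn lower in KO young relative to WT aged (−0.20) in the authors' deposited tables. In KO ageing Myocd was higher (0.58) and Lmod1 lower (−0.32) in the authors' deposited table. Of 8 brown adipocyte markers 4 were called in KO ageing, with Ucp1 at 1.62 (SE 0.45), Ppargc1a at 0.89 (SE 0.14) and Kcnk3 at 0.87 (SE 0.16) higher and Prdm16 at −0.33 (SE 0.08) lower in the authors' deposited table. In KO young relative to WT aged Dio2 (0.57) and Prdm16 (0.19) of that list were higher, and in WT ageing Prdm16 (0.18), in the authors' deposited tables. Of 8 white adipocyte markers Cidec was higher in WT ageing (0.45) and lower in KO young relative to WT aged (−0.56), and Pnpla2 was higher in KO ageing (0.54), in the authors' deposited tables. Of 8 Schwann cell and neuron markers 1 was called in each comparison, Ncam1 in WT ageing (−0.39), Snap25 in KO young relative to WT aged (−2.15) and S100b in KO ageing (0.36), in the authors' deposited tables. Of 8 striated muscle markers Actc1 (−1.99) and Myh6 (−0.09) were lower in WT ageing in the authors' deposited table, with no call elsewhere. Of 10 glucocorticoid-responsive genes 7 were lower in KO young relative to WT aged, with a median of −0.97, and 8 were higher and 1 lower in KO ageing, with a median of 0.99. In WT ageing 1 was higher, Fkbp5 at 1.06 (SE 0.39) in the authors' deposited table, and 1 lower. The part of cell composition or of these hormone-responsive genes in the differences of the early factors was not tested.

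No early factor was in all 3 tables, so the genes most like them were sought in the 2 tables that held most. The 4 factors called both in KO young relative to WT aged and in KO ageing had median log2 fold changes of 0.88 and −1.01. Among 649 other genes called in both whose mean normalized count reached 50, the smallest Euclidean distance over these 2 fold changes belonged to Gm4876 (0.12), the stress kinase gene Plk2 (0.13), Best3 (0.16), Igsf9 (0.17) and the hyaluronan synthase gene Has2 (0.21, rank 5). The authors' deposited tables gave Plk2 0.89 (SE 0.15) and −1.14 (SE 0.15). The 2 comparisons share the KO young libraries, which makes opposite signs more likely for any gene.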

How the data were processed

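RNA of 20 aorta libraries was measured, per the labels' protocols, with a stranded kit. The build GRCm39 and the tools DESeq2 1.42.1, MultiQC 1.25.1, Subread 2.0.8 with featureCounts, and STAR 2.7.11b appear in the submitters' processing notes, without settings. For each called gene, per the file headers, the tables hold a mean normalized count, a log2 fold change, its SE, and raw and adjusted p-values, all made by the authors. That deposited mean is a signal pooled over both groups. Values per library were not analysed here, and no model was refitted.

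Dividing the adjusted by the raw p-value at the top of a table gave the number of tested genes. At its end, the raw p-value times that number, divided by the adjusted p-value, gave back its number of rows. The direction of each deposited fold change was taken from group means, which must be equal for a group shared by a pair of tables. With aged mice on the positive side their median absolute deviation was 0.0286 (WT aged) and 0.0353 (KO young) on the log2 scale, against at least 0.185 and 0.115 for other readings. The sign of KO young against WT aged was turned for the text. Group means carry the shrinkage of the fold change.

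Ageing effects were compared between genotypes by a two-sided z test with Benjamini-Hochberg adjustment over the 438 genes in both tables; 131 passed 0.05. No early factor was among the 438, so none was tested. The scripts were tested on simulated counts. The members, lists and motifs were chosen with earlier results of these data known, so list counts stand without tests. Candidates for naming were the 10 members, up to 4 genes per list and comparison by smallest adjusted p, the 5 nearest genes and Slc24a4. Not every candidate is named, so the choice within lists was not mechanical. Egr4, Nab1 and Nab2 are named although not called. Spry2 and Ccn1 were added after their values were seen. p-values measure the spread between pools of 2 mice. Scripts ran under Python 3.11.15 with matplotlib 3.10.9, SciPy 1.17.1, pandas 2.3.3 and NumPy 2.4.6.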

Additional observations from a re-analysis of the deposited data

Results flagged for a closer look

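For 4 genes of the lists the effect of age differed between the genotypes by a test of the difference itself (two-sided z test, adjusted over 438 genes). Of all 438 genes 131 passed, so such a difference is not particular to these 4. Klf15 rose more with age in KO than in WT aorta, by a log2 difference of 0.63 (adjusted p = 1.71e-04). Fkbp5, a glucocorticoid-induced co-chaperone gene, also rose more in KO, by 1.19 (adjusted p = 0.0124), with 0.174 for the adjusted p on the scale of z times SE. Prdm16, a regulator of brown fat identity, was higher with age in WT (0.18, SE 0.07) and lower in KO aorta (−0.33, SE 0.08) in the authors' deposited tables, a difference of −0.51 (adjusted p = 3.04e-05). Ccn1, a matricellular early-response gene, fell more in KO, by −1.22 (adjusted p = 6.55e-04), from −0.10 (SE 0.20) in WT to −1.32 (SE 0.24) in KO in the authors' deposited tables, and the WT value is strongly shrunken; across the alternative scales its adjusted p ranged from 7.53e-07 to 0.0258.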

How the results depend on the processing

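The count of early factors called in KO young relative to WT aged was 10 at the authors' limit and 8 or more at adjusted p limits of 0.01 and 0.001, with absolute log2 fold changes of 0.5 or more and with means of 50 or more; it was 6 under Bonferroni adjustment and 4 with absolute log2 fold changes of 1 or more. In KO ageing the count was 4, with 2 under Bonferroni and 2 with absolute log2 fold changes of 1 or more. The count of 3 in WT ageing was the least firm: it was 1 at an adjusted p under 0.01 and 0 at 0.001, under Bonferroni and with absolute log2 fold changes of 1 or more. Among all called genes that fold limit was reached by 9.20% in KO young relative to WT aged, 4.75% in KO ageing and 10.4% in WT ageing. Shares of all genes at the other limits are not given here, so those counts have no background beside them. With z times SE in place of the shrunken fold change the median of the called factors went from −0.56 to −1.29 in WT ageing and from −1.01 to −1.24 in KO ageing. The sign could not change, because z took that of the fold change. No paired analysis was possible because values per library were not analysed here, and no replicate could be left out for the same reason. Depth is unknown and sets no interval.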
